A study of Mus musculus with 6 samples.

Results

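Neurog3-positive cells were the single cells of mouse small-intestinal organoids in which 2 or more transcripts of Neurog3 were counted, and they are described here as enteroendocrine progenitors. Among the cells with 1000 or more detected genes and under 20% of their transcripts from mitochondrial genes, 2444 of 87954 met this rule, in all 6 libraries. The cells were chosen by their Neurog3 count, so Neurog3 values are given as a description and are not tested. The transcripts were counted by unique molecular identifiers (UMIs), short random tags that let copies of 1 captured RNA molecule be counted once. The 3 markers by which the population was named were Neurog3, Neurod1 and Sox4, and the last 2 played no part in the choice of cells.

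The organoids, which are cultures of intestinal epithelium in a gel, came from adult mice and were taken on day 3. The WT groups were WT organoids with DMSO vehicle (-EIPA, 2 libraries) and WT organoids with EIPA (+EIPA, 2 libraries), an amiloride-type inhibitor of sodium-proton exchangers. The CRISPR groups came from an inducible-CRISPR-Cas9 organoid line made by lentiviral infection of WT organoids and puromycin selection, grown as clones without doxycycline (-Dox, 1 library) or with it (+Dox, 1 library). Both CRISPR groups carried the Cas9-GFP cassette and its guide RNA, and the +Dox cells were sorted as live GFP+ cells whereas all other groups were sorted as live cells. The study asked how loss of sodium-proton exchange alters the fate of intestinal stem cells and their secretory progeny. With 1 library in each CRISPR group, no test between these groups was run, and their intervals cover counting error only.

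Neurog3 encodes a basic helix-loop-helix transcription factor that is switched on for a short time as a crypt progenitor commits to the enteroendocrine lineage, the hormone-producing cells of the gut. Progenitors that escape Notch signalling express Atoh1, which opens the secretory lineages, and the Notch ligand Dll1, through which they restrain their neighbours. Cells that then express Neurog3 switch on further transcription factors, among them Neurod1, Insm1 and Pax4, leave the cell cycle and go on to make chromogranins, granule proteins and hormones. Basic helix-loop-helix factors such as NEUROG3 and NEUROD1 bind short E-box sequences whose general form is CANNTG.

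The upstream sequences of 3 of the genes described below are shown, that of Neurog3 because it chose the cells and those of Neurod2 and Sox4 because both genes were higher in them, and because E-boxes are the words that factors of this class read. They are examples: other genes that were higher, Neurod1 among them, are not shown, and the shares over sets of genes are given below. The 250 bases before the annotated start of each gene were taken from RefSeq (GRCm38.p6, the assembly known as mm10), written 5′ to 3′ on the strand of the gene, with the words CAGATG (read on both strands, so also as its reverse complement CATCTG) and CAGCTG (its own reverse complement) in capitals. Neurog3 lies at chr10:62133090-62134763 on the + strand and its upstream window at chr10:62132840-62133089. Neurod2 lies at chr11:98325415-98329648 on the - strand with its window at chr11:98329646-98329895, and Sox4 lies at chr13:28948919-28953713 on the - strand with its window at chr13:28953700-28953949. The window of Neurod2 overlaps the annotated first exon by a few bases, as does that of Sox4.
Neurog3: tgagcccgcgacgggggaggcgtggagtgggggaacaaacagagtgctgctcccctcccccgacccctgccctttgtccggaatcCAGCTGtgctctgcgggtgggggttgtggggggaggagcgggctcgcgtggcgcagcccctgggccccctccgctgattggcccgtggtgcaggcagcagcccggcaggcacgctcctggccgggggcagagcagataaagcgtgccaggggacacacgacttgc
Neurod2: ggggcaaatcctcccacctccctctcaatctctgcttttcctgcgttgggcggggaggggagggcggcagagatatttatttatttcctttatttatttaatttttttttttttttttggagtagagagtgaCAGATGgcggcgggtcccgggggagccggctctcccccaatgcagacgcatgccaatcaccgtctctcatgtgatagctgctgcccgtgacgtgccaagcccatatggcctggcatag
Sox4: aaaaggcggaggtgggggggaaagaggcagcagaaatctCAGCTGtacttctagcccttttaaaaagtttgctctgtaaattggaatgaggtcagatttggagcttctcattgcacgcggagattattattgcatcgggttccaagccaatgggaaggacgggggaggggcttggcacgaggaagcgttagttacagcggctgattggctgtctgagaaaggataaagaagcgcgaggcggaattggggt
The Neurog3 window held 1 CAGCTG, which began 165 bases before the start. The Neurod2 window held 1 CAGATG at 118 bases, and the Sox4 window 1 CAGCTG at 211 bases. Of the 23 enteroendocrine transcription factors listed for this work, 18 had a promoter in the reference table, and 8 of them (44.4%) held either word in a window of this length, against 28.2% of the 27025 genes in the table. These 18 genes had 26 promoters and the 27025 genes had 32851, so each factor had on average more windows to match. For the general form CANNTG the shares were 83.3% and 69.3%. Of the 15 genes with the largest positive differences from other cells at 50 CPM or more, 11 were matched. Of these, 45.5% held either word, 45.5% CAGATG (16.3% of all genes), 9.09% CAGCTG (14.7%) and 63.6% CANNTG. The last 2 shares lay below those of all genes and the first 2 above. Of the 15 genes chosen in the same way against Chga-positive cells, a comparison described below, 14 were matched. Of these, 42.9% held either word, 21.4% CAGATG, 35.7% CAGCTG and 78.6% CANNTG, all above the shares of all genes. These matches describe letters in a window and no binding was measured.

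Each library held 12083 to 18211 kept cells, whose median depth was 11478 to 17020 UMIs per cell. The Neurog3-positive cells were shallower, with medians of 6116 to 7336 UMIs and 2452 to 2909 genes per cell, against 11542 to 17258 UMIs and 2906 to 3773 genes in cells with no Neurog3 UMI. Mitochondrial transcripts made up a median of 2.69% to 4.14% of UMIs in the Neurog3-positive cells and 3.44% to 5.30% in the others. Cell barcodes were shared between libraries in 854 cases, 49 of which involved a Neurog3-positive cell, and in no pair of libraries was a shared barcode Neurog3-positive in both. The cells scored as likely doublets (2 cells in 1 droplet) made up 17.6% to 25.2% of Neurog3-positive cells, against 9.27% to 9.89% of all kept cells. Whether doublets account for any of the levels below was not tested beyond refitting without them.

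Within the Neurog3-positive cells the median Neurog3 count was 4 to 6 UMIs and the highest count 24 to 40 UMIs per cell. Just inside the threshold, at exactly 2 UMIs, were 42 and 126 cells of the -EIPA replicates, 78 and 57 of the +EIPA replicates, 66 of the -Dox and 109 of the +Dox library. Just outside it, at exactly 1 UMI, were 123 and 244, 175 and 145, and 154 and 180 cells in the same order. In each library more cells lay just below the threshold than just on it. The summed Neurog3 level of the chosen cells was 742 and 486 CPM, the counts scaled to a total of 1000000 UMIs, in the -EIPA replicates, 572 and 542 in the +EIPA replicates, 558 in -Dox and 472 in +Dox.

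The share of Neurog3-positive cells did not move in 1 direction with EIPA, and 2 libraries against 2 cannot show that it was equal. It was 1.98% of kept cells in replicate 1 and 3.27% in replicate 2 of -EIPA, and 2.76% and 2.48% in the +EIPA replicates. The +EIPA values lay between the -EIPA values, with means of 2.63% ± 0.912 (SD, n = 2) in -EIPA and 2.62% ± 0.201 (SD, n = 2) in +EIPA and a ratio of 0.996. An exact two-sided permutation test gave p = 1, and with 2 libraries against 2 the smallest p it can give is 0.333. By replicate number the ratio was 1.39 and 0.756, on opposite sides of 1, and leaving out -EIPA replicate 1 or 2 gave 0.80 and 1.32. When each cell was thinned to 5000 UMIs, leaving out 928 to 2497 shallower cells in a WT library, the shares were 1.35% and 2.04% in -EIPA and 1.55% and 1.60% in +EIPA. The Neurog3-positive cells were shallower than the others, so this cut may leave them out more often, and thinned shares are not free of depth.

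In the CRISPR line the share was 1.82% in -Dox (exact 95% binomial interval 1.63% to 2.03%) and 4.63% in +Dox (4.27% to 5.03%). After thinning to 5000 UMIs it was 0.757% and 2.99%, with 1751 and 690 cells left out. The median depth of the Neurog3-positive cells was 6116 UMIs in -Dox and 7190 in +Dox, against 11986 and 17258 in cells with no Neurog3 UMI. The cut may thus fall unequally on the 2 libraries, and the larger gap after thinning is not read as a correction for depth. The +Dox interval lay above those of all other libraries. The -Dox value was the lowest, but its interval overlapped that of -EIPA replicate 1 (1.75% to 2.24%). The groups differed also in the GFP gate of the sort, and the gate and Dox cannot be told apart.

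A share of cells with UMIs can contain RNA released by other cells. Enterocytes, the absorptive cells, should lack Neurog3, and in cells with 2 or more UMIs of Alpi, an enterocyte brush-border phosphatase, 0.323% and 1.35% (-EIPA), 1.75% and 0.842% (+EIPA), 0.665% (-Dox) and 1.04% (+Dox) carried 2 or more Neurog3 UMIs, at median depths of 13127 to 19325 UMIs per cell. Thinned to 5000 UMIs these became 0.228% and 0.658%, 0.814% and 0.378%, 0.233% and 0.0848%. In every library the share in all kept cells was higher than that in Alpi-positive cells of the same library, both as counted and thinned. In cells with 2 or more UMIs of Dclk1, a tuft cell marker, the share was 0.685% and 1.15% in -EIPA and 3.21% and 1.40% in +EIPA, at median depths of 5784 to 7593 UMIs, and the third of these, 6 of 187 cells (exact 95% interval 1.19% to 6.85%), was above the 2.76% of all kept cells of that library. Thinned, it was 1.68% against 1.55% there, from 2 of 119 cells. In the CRISPR libraries 0 of 27 and 0 of 12 such cells carried 2 Neurog3 UMIs, which at these numbers shows little.

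**Figure D1:**
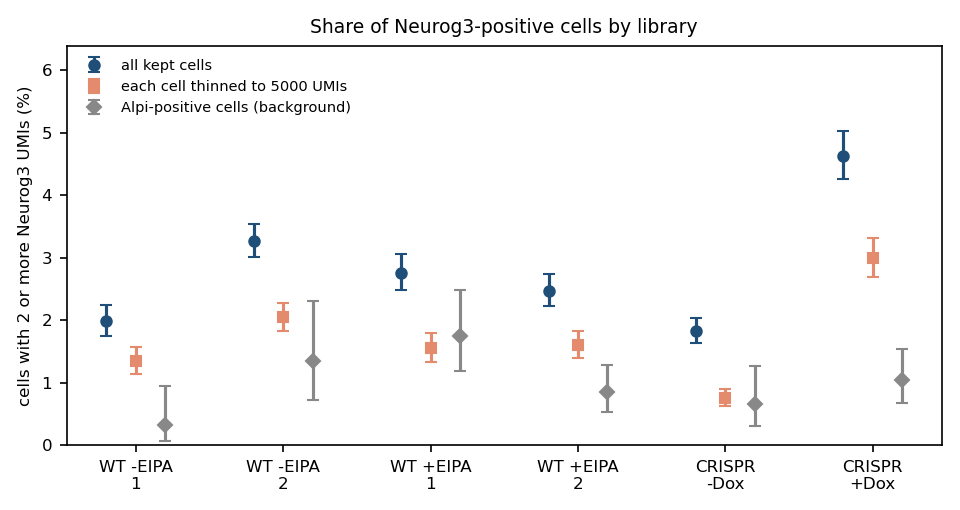
Share of cells with 2 or more Neurog3 UMIs (y axis, percent) in each of the 6 libraries (x axis), for all kept cells, for the same cells thinned to 5000 UMIs and for Alpi-positive cells, with bars for exact 95% binomial intervals that cover counting error only. The WT libraries lie between 1.98% and 3.27% as counted, the +Dox library stands highest at 4.63%, and the Alpi-positive cells lie lowest in each library apart from +EIPA replicate 1, where they exceed the thinned share.

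The markers named with the population were high in these cells. Neurod1, which encodes a factor downstream of NEUROG3, stood at 266 and 240 CPM in -EIPA, 247 and 317 in +EIPA, 102 in -Dox and 153 in +Dox. In cells with no Neurog3 UMI it stood at 0.934 to 8.59 CPM, so the populations did not overlap in any library, and it was higher by 5.43 ± 0.24 (log2 fold change ± SE, 6 of 6 libraries). Neurod1 was detected in 62.0% and 59.1%, 68.4% and 64.9%, 33.3% and 46.3% of the Neurog3-positive cells in the same order, or 46.5% and 43.5%, 51.3% and 51.9%, 25.0% and 32.4% when each was thinned to 3000 UMIs. The CRISPR libraries were thus the lowest on both scales.

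Sox4, a factor of the SOX family that is expressed in early enteroendocrine and other progenitors, stood at 1408 and 1110 CPM in -EIPA, 969 and 986 in +EIPA, 1471 in -Dox and 957 in +Dox. It was detected in 95.9% to 99.6% of the Neurog3-positive cells. Other cells held 162 to 237 CPM, and Sox4 was higher in the Neurog3-positive cells by 2.37 ± 0.08 (log2, 6 of 6 libraries).

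Gene by gene, the Neurog3-positive cells were compared with all kept cells that had no Neurog3 UMI, using counts summed over the cells of each library, edgeR's quasi-likelihood test with library as a block, and a threshold of 0.05 on the Benjamini-Hochberg adjusted p. Of 14489 genes tested, 4372 were higher (30.2%) and 4689 lower (32.4%), so a call alone says little, and sizes are given. With library as a block, these p-values measure how the difference between the populations varied from library to library, which may be partly technical. The libraries came from WT and CRISPR organoids under different treatments and are not replicates of a single condition. A CPM is a share of the cells' own RNA. The fold changes are fitted after TMM scaling, which the CPM values do not carry. Neurog3 was left out of all tests.

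Of 23 enteroendocrine transcription factors, 21 were higher than in other cells and 0 lower, with a median log2 fold change of 4.68 against -0.02 over all genes tested. Neurod2, a paralogue of Neurod1, showed the largest difference of the named genes, at 76.4 and 53.8 CPM (-EIPA), 55.9 and 52.5 (+EIPA), 71.8 (-Dox) and 77.4 (+Dox) against 0.344 to 0.611 CPM in other cells, or 6.85 ± 0.14 on the log2 scale. Pax4, which encodes a paired homeodomain factor of early endocrine cells, was higher by 6.26 ± 0.17, Myt1 by 5.79 ± 0.28 and Insm1, the zinc-finger factor of endocrine differentiation, by 5.76 ± 0.28. Rfx6 (5.13 ± 0.25), Nkx2-2 (5.09 ± 0.22) and St18 (5.05 ± 0.28) followed. The 6 Neurog3-positive values of each of these genes lay above the 6 values of other cells.

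Outside the transcription factors, the genes with the largest differences at 50 CPM or more were Tubb3, the neuronal beta-tubulin, at 46.8 to 91.4 CPM against 0.331 to 0.685 (6.70 ± 0.17), and Fgd2, a guanine nucleotide exchange factor, at 80.9 to 110 CPM against 0.560 to 2.10 (5.96 ± 0.18). Olfm1, Epb42, Gfra3, Serpina1c, Vwa5b2 and Pclo were higher by 5.87, 5.67, 5.65, 5.48, 5.36 and 5.34. Gfra3 encodes a co-receptor for neurotrophic ligands and Pclo a presynaptic scaffold protein. All were higher in 6 of 6 libraries.

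Among 18 genes of the Notch pathway tested, 11 were higher and 4 lower, with a median log2 fold change of 0.63. Mfng, a glycosyltransferase that modifies Notch receptors, showed the largest difference, at 16.4 and 14.4 CPM (-EIPA), 19.4 and 21.3 (+EIPA), 32.3 (-Dox) and 24.2 (+Dox) against 0.212 to 0.283 CPM (6.13 ± 0.20). The ligand Dll1 stood at 66.3 and 48.1, 35.5 and 53.9, 57.9 and 31.7 CPM against 14.1 to 20.9 (1.23 ± 0.15), and Dll4 at 13.1 to 17.4 CPM against 2.19 to 3.64 (2.20 ± 0.15). Hes1, a repressor that Notch signalling switches on, was lower, at 74.3 to 92.7 CPM against 116 to 166 (-0.93 ± 0.07), with no overlap between the populations. Notch3 (2.58 ± 0.33) and Maml3 (1.51 ± 0.08), a coactivator of the pathway, were higher.

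Transcription factors of the other secretory lineages did not rise together: of 10 tested, 4 were higher and 3 lower. Atoh1 stood at 5.05 to 13.1 CPM in the Neurog3-positive cells and 8.45 to 14.9 CPM in other cells, overlapping ranges, and was lower in the fit (-0.62 ± 0.17). The libraries were mixed: the Neurog3-positive value was the lower one in 4 of 6, most of all in +Dox (5.05 against 13.3 CPM), and the higher one in -EIPA replicate 1 (9.23 against 8.45) and -Dox (9.36 against 8.51). It was detected in 5.00% to 9.07% of the Neurog3-positive cells. Foxa3 was higher (0.93 ± 0.07) and so was Bhlha15 (0.48 ± 0.13), while Pou2f3, the tuft cell factor, was lower (-0.76 ± 0.29, 5 of 6 libraries). For Gfi1 the values were 0.917 to 2.46 CPM against 1.43 to 2.78, a difference that did not pass the threshold. Spdef was lower by a log2 fold change of -0.40 ± 0.13, in 4 of 6 libraries.

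**Figure D2:**
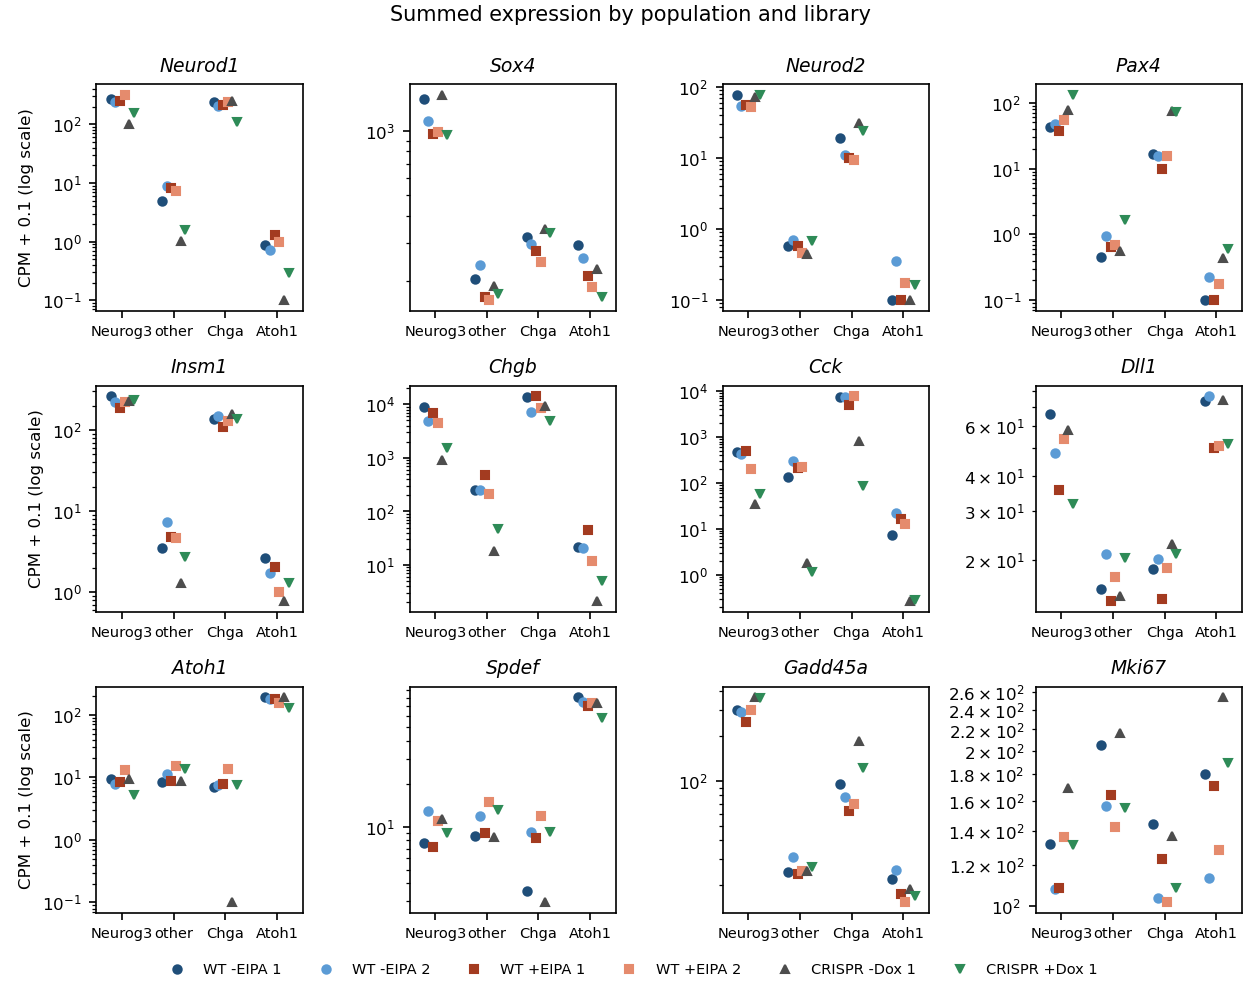
Level of 12 genes (y axis, CPM + 0.1, log scale) in the summed cells of each library for Neurog3-positive cells, cells with no Neurog3 UMI (other), Chga-positive cells without Neurog3 and Atoh1-positive cells without Neurog3 (x axis), 1 point per library. Chga- and Atoh1-positive cells were chosen on the gene they are named for. Neurod2 lies at 52.5 to 77.4 CPM in the Neurog3-positive cells and at or below 31.3 CPM in the other populations.

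Cell-cycle genes were lower than in other cells. All 15 tested genes of S phase were lower (median log2 fold change -0.73), as were all 16 of G2 and mitosis (median -0.58). Mki67, a marker of cycling cells, stood at 132 and 108 CPM (-EIPA), 109 and 136 (+EIPA), 170 (-Dox) and 131 (+Dox) against 142 to 216 CPM in other cells (-0.62 ± 0.06). The ranges overlapped across libraries, and within each library the Neurog3-positive value was the lower one. Mcm3, a subunit of the replicative helicase, was lower (-0.92 ± 0.09, 30.7 to 37.5 CPM against 39.4 to 67.9).

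Some genes that hold back the cell cycle were higher. Gadd45a, a stress and growth-arrest gene, stood at 300 and 290 CPM (-EIPA), 251 and 300 (+EIPA), 367 (-Dox) and 363 (+Dox) against 23.7 to 30.7 (3.37 ± 0.08). Its relative Gadd45g was higher by 3.53 ± 0.09 and the antiproliferative Btg2 by 1.88 ± 0.06, all without overlap. Cdkn1c, which encodes the CDK inhibitor p57, was at 173 and 168, 155 and 130 CPM in the WT libraries but at 34.1 and 30.1 CPM in -Dox and +Dox, against 1.35 to 13.4 CPM in other cells (3.82 ± 0.13). It was not particular to the Neurog3-positive cells. Chga-positive cells without Neurog3 held 173 and 219, 156 and 147 CPM in the WT libraries and 31.3 and 13.9 CPM in -Dox and +Dox. In all, 7 of the 12 listed D cyclins, CDK inhibitors and growth-arrest genes tested were higher and 5 lower.

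Of 12 crypt stem cell genes 3 were higher and 7 lower. Mex3a, which encodes an RNA-binding protein of slowly cycling crypt cells, was higher by 2.01 ± 0.09 (24.9 to 38.9 CPM against 5.99 to 6.96) and Prom1 by 1.11 ± 0.10. Lgr5, the receptor that marks crypt-base stem cells, stood at 40.8 to 59.9 CPM against 47.6 to 59.7 and was lower (-0.42 ± 0.07) in 5 of 6 libraries. In +Dox the Neurog3-positive value was the higher one, 59.9 against 55.7 CPM. Olfm4 was lower too (-0.63 ± 0.08), again in 5 of 6 libraries with +Dox the other way (2003 against 1829 CPM).

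Genes of the other mature lineages were mostly lower: 8 of 10 goblet, 10 of 13 Paneth, 7 of 10 tuft and 11 of 12 enterocyte genes, with 0, 1, 0 and 1 higher. They were not absent. The summed Paneth list held 2985 to 10390 CPM in the Neurog3-positive cells and 7001 to 24830 CPM in other cells, and Lyz1, the Paneth cell lysozyme, was detected in 66.4% to 97.5% of Neurog3-positive cells. The summed enterocyte list held 2287 to 7587 CPM against 4749 to 20940. The goblet list, at 4056 to 8244 CPM, overlapped the 3904 to 9543 CPM of other cells. Within libraries the Neurog3-positive goblet sum was the higher one in -EIPA replicates 1 (5690 against 4034 CPM) and 2 (5786 against 5236). It was higher also in +EIPA replicate 1 (6276 against 4805) and -Dox (4056 against 3904). In +EIPA replicate 2 (8244 against 9543) and +Dox (4263 against 9259) it was the lower one. How much of this is RNA from other cells was not tested. Of 6 markers of immune, endothelial and mesenchymal cells, 3 were at 0 in all libraries, and the 6 summed to 0.604 to 6.29 CPM against 0.379 to 0.817 in other cells. The 1 that passed the filter, Pecam1, an endothelial adhesion gene, was higher (3.11 ± 0.43, 6 of 6 libraries), at 3.04 to 5.29 CPM in the WT libraries, 0.302 in -Dox and 0.862 in +Dox against 0.213 to 0.314 CPM, from 1 to 21 UMIs per library. In Chga-positive cells it stood at 1.61 to 5.69 CPM.

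Set against Chga-positive enteroendocrine cells, the Neurog3-positive cells held more Sox4, Neurod2 and Gadd45a, while the enteroendocrine transcription factors split in direction. The comparator was the 1811 kept cells with no Neurog3 UMI and 2 or more UMIs of Chga, which encodes chromogranin A, a granule protein. It held 257 to 594 cells in a WT library but 48 in -Dox and 119 in +Dox. Since these cells were chosen on Chga, and 31.2% to 61.3% of the Neurog3-positive cells held any Chga, genes that go with Chga are high in the comparator by choice, and Chga was left out. Of 11160 genes tested, 1601 were higher in the Neurog3-positive cells (14.3%) and 1450 lower (13.0%).

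Sox4 stood at 243 to 347 CPM in the Chga-positive cells, below all values of the Neurog3-positive cells (higher by 1.95 ± 0.08, 6 of 6 libraries). Neurod2 was higher by 2.20 ± 0.11, Epb42 by 2.66 ± 0.11, Tubb3 by 2.06 ± 0.09 and Cdc14b, a phosphatase of the cell cycle, by 2.07 ± 0.08. Gadd45a (1.80 ± 0.09), Gadd45g (1.53 ± 0.06), Mfng (2.57 ± 0.19) and Dll1 (1.37 ± 0.12) were higher as well, and so were Rcor2 and Bcl2, a corepressor and an inhibitor of cell death, by 1.71 and 1.66. For Neurod1, at 109 to 247 CPM in the Chga-positive cells, the difference of 0.18 ± 0.12 did not pass (edgeR adjusted p = 0.294), and its direction was not stable. The Neurog3-positive value was the higher one in 5 of 6 libraries and the lower one in -Dox (102 against 247 CPM), and the difference turned to -0.10 with a threshold of 1 Neurog3 UMI and to -0.23 within the depth range of the Neurog3-positive cells.

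The 23 enteroendocrine transcription factors split, with 11 higher and 7 lower than in the Chga-positive cells. The lower ones included Etv1 (-2.19 ± 0.13), Pax6 (-1.96 ± 0.14), Isl1 (-1.08 ± 0.13, 5 of 6 libraries) and Lmx1a (-0.90 ± 0.12), homeodomain or ETS factors of hormone-producing cells. Pax4 was on the higher side (1.39 ± 0.15), as were Myt1 (0.86 ± 0.12) and Insm1 (0.78 ± 0.06). Fev was slightly lower (-0.29 ± 0.10).

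Of 12 hormone genes 11 were lower and 0 higher, at a median log2 fold change of -3.60 against 0.00 over all genes, a direction that the choice of the comparator on Chga fixes in part. With 2 or more Chga UMIs on both sides, the summed list of the WT libraries was 6280 to 7940 CPM with Neurog3 and 22700 to 26480 CPM without, but the genes did not go one way. Tac1, the tachykinin precursor gene, was higher with Neurog3 in the 4 WT libraries (706 to 1203 against 525 to 745 CPM) and lower in -Dox (116 against 228) and +Dox (97.2 against 223). Tph1, the enzyme of serotonin synthesis, was higher with Neurog3 in 3 of 6 libraries and lower in +EIPA replicate 1 (430 against 501 CPM), -Dox (109 against 142) and +Dox (126 against 143). Ghrl, for ghrelin, was higher with Neurog3 in 5 of 6 libraries and lower in -Dox (504 against 836 CPM). Cck, which encodes cholecystokinin, stood at 468 and 422 CPM (-EIPA), 501 and 206 (+EIPA), 34.4 (-Dox) and 57.5 (+Dox) in the Neurog3-positive cells and reached 7911 CPM in Chga-positive cells (-3.71 ± 0.41). Sct, which encodes secretin, was at 161 to 230 CPM in the WT and 5.79 to 6.64 CPM in the CRISPR libraries (-3.57 ± 0.09). Nts, Gcg, Gip and Pyy, for neurotensin, the glucagon and GLP-1 precursor, GIP and peptide YY, differed by -5.75, -5.37, -4.86 and -4.09 on the log2 scale, values that rest on the WT libraries. Single cells carried much of some of these sums: the highest cell held 31.6% to 67.8% of the Gip UMIs in 3 of the 4 WT libraries and 13.2% to 46.0% of the Cck UMIs in the WT libraries.

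Ghrl over all Neurog3-positive cells was the exception: 1731 and 1507 CPM (-EIPA), 1551 and 1373 (+EIPA), 303 (-Dox) and 182 (+Dox), against 219 to 2800 CPM in Chga-positive cells, a difference of -0.36 ± 0.17 that did not pass (edgeR adjusted p = 0.143). Granule genes were lower, 11 of 13, with a median of -1.28, again against cells chosen on a granule gene. With 2 or more Chga UMIs on both sides, the summed list, Chga included, overlapped in the WT libraries, at 19760 and 11200 (-EIPA), 14590 and 11540 CPM (+EIPA) with Neurog3 and 17570 and 10140, 18590 and 12010 CPM without. In -Dox and +Dox it was 4185 and 4260 CPM with and 10700 and 5984 CPM without Neurog3. Scg2 (-4.76 ± 0.24) and Vgf (-2.23 ± 0.21), secreted granins, showed the largest differences between the whole populations, and 1 gene of the list was higher. Afp, the alpha-fetoprotein gene, was lower (-4.88 ± 0.54).

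Set against Chga-positive cells, few cell-cycle genes passed. Of 15 S-phase genes 0 passed in either direction with edgeR and 1 had an unadjusted p under 0.05, and of 16 genes of G2 and mitosis 2 were higher, Ccnb2 (0.36 ± 0.07) and Ube2c (0.22 ± 0.07). The 7 immediate early and stress genes that passed, of 8 tested, were all lower, among them Fosb (-1.16 ± 0.11) and Atf3 (-0.82 ± 0.09). So were 9 of 12 enterocyte genes.

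The last comparator was the 2967 kept cells with no Neurog3 or Chga UMI and 2 or more UMIs of Atoh1, the factor of the secretory branch, 287 to 754 per library. They were chosen on Atoh1, so genes that go with Atoh1 are high in them by choice, and Atoh1 (128 to 192 CPM there) was left out with Chga. Of 11014 genes tested, 2959 were higher in Neurog3-positive cells (26.9%) and 3055 lower (27.7%). Since they had no Neurog3 or Chga UMI, genes of the enteroendocrine lineage are low in them by choice: Neurod1, Neurod2 and Pax4 stood at 0 to 1.20 CPM, and these 3 passed the filter on low counts through the Neurog3-positive cells alone. Nothing is read from the direction of the enteroendocrine transcription factors, hormone and granule genes here.

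All 8 factors of the other secretory lineages were lower in Neurog3-positive cells, with a median of -1.94. The choice of the comparator on Atoh1 fixes this direction in part, and that of the goblet and Paneth genes below. Gfi1, which acts in goblet and Paneth precursors, stood at 11.8 to 17.8 CPM in Atoh1-positive cells (-3.30 ± 0.16) and Spdef, a goblet and Paneth factor, at 57.8 to 81.0 CPM (-3.07 ± 0.09). Dll1 was lower too, at 49.97 to 76.9 CPM in the Atoh1-positive cells (-0.66 ± 0.09, 5 of 6 libraries), with ranges that overlapped. All 10 goblet and all 12 Paneth genes tested were lower, among them Muc2, the goblet mucin (-4.34 ± 0.19), and Defa30, a Paneth defensin (-4.23 ± 0.36). Of 15 S-phase genes 14 were lower (median -0.38), and of 16 mitotic genes also 14 (median -0.36). The summed CPM did not go 1 way in every library. The S-phase sum was higher in Neurog3-positive cells in +EIPA replicate 2 (582.9 against 553.9 CPM) and +Dox (757.4 against 732). The sum for G2 and mitosis was higher in -EIPA replicate 2 (1153 against 1143 CPM) and +EIPA replicate 2 (1270 against 1132). In every other library these sums were lower.

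The Neurog3-positive cells were not uniform. Grouped by their Neurog3 UMIs, the median over libraries of the Sox4 level was 181 CPM in cells with 0 UMIs, 408 with 1, 814 with 2, 972 with 3 to 5, 1177 with 6 to 10 and 1441 with 11 or more. Gadd45a went from 24.7 to 95.1, 221, 271, 343 and 469 CPM across the same steps, and Neurod2 from 0.476 to 14.5, 44.3, 57.6, 67.6 and 104. The cells at 1 UMI, just outside the rule, thus lay between the extremes for each of these genes. The cells at 1 UMI were deeper, with median totals of 10686 to 15342 UMIs against 5886 to 7776 in cells with 11 or more. These steps are a description without a test.

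The median of Neurod1 rose to 209 CPM at 2 UMIs and then by smaller steps, to 237, 241 and 256 CPM. Mki67 stood at 140 and 156 CPM at 2 and at 3 to 5 UMIs, then 123 and 75.5 CPM at 6 to 10 and at 11 or more, the lowest bin in every library but +Dox. The median of Isl1 was at 45.6, 55.7 and 55.0 CPM for 1, 2 and 3 to 5 UMIs and at 25.3 and 13.6 CPM above that. The median of Cck was 640 and 696 CPM at 1 and 2 UMIs and 172, 176 and 73.7 CPM above. Single libraries departed from these medians. Among the 5 steps from 1 UMI up, the level at 11 or more UMIs was the lowest for Cck in -EIPA replicate 1 and +EIPA replicate 1 alone. In -EIPA replicate 2 it stood at 810 CPM, above the 251 and 259 CPM at 3 to 5 and 6 to 10 UMIs, in +EIPA replicate 2 at 127 against 57.1 CPM at 6 to 10 UMIs, and in +Dox at 25.4 against 14.8 CPM at 1 UMI. In -Dox it was the highest of the 5, at 78.9 CPM, against 8.12 CPM at 1 UMI and 27.5 to 35.3 CPM between. Isl1 was not lowest at 11 or more UMIs in -EIPA replicate 1 (23.5 against 18.9 CPM at 6 to 10 UMIs), +EIPA replicate 2 (52.0 against 31.8 CPM) or +Dox (1.496 against 0.316 CPM at 1 UMI).

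**Figure D3:**
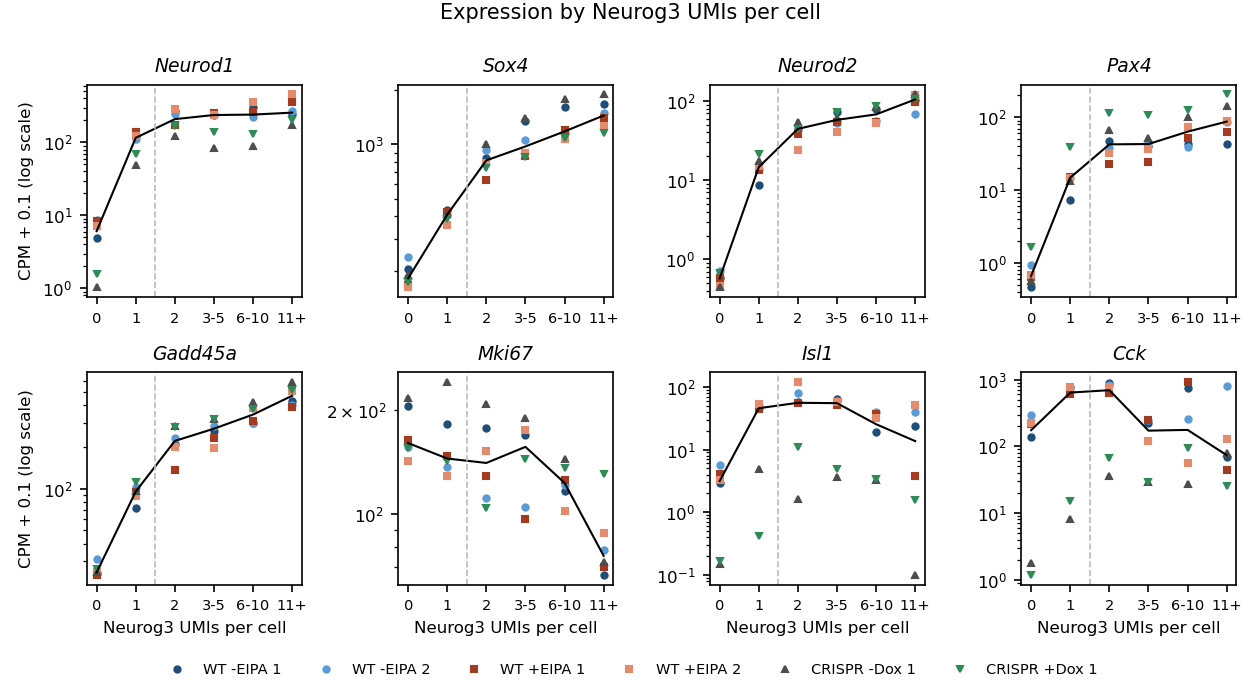
Level of 8 genes (y axis, CPM + 0.1, log scale) in cells grouped by their Neurog3 UMIs (x axis), with 1 point per library, a line through the median over libraries and a dashed line at the threshold of the rule. The Sox4 median climbs from 181 to 1441 CPM, while the Mki67 median is lowest, at 75.5 CPM, in cells with 11 or more UMIs.

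Chga divided the population further. It was detected in 52.8% and 53.7% (-EIPA), 61.3% and 56.9% (+EIPA), 31.2% (-Dox) and 51.1% (+Dox) of the Neurog3-positive cells, or in 43.7% and 41.6%, 47.4% and 46.2%, 20.8% and 37.4% after thinning to 3000 UMIs. Cells with no Chga UMI and cells with 2 or more were compared as a description, since Chga chose them. Without Chga, the median over libraries was 1520 CPM for Sox4, 69.2 for Dll1, 38.7 for Mex3a and 146 for Mki67. With Chga it was 745, 27.3, 24.0 and 106 CPM, lower in 6 of 6 libraries for each.

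On the other side, Neurod1 stood at 102 CPM without and 359 CPM with Chga. Tac1 went from 19.1 to 751 CPM and Tph1 from 7.52 to 416 CPM. Ghrl stood at 43.5 against 3022, Isl1 at 3.86 against 76.4 and Pax6 at 1.60 against 29.7 CPM, each higher with Chga in 6 of 6 libraries. In Chga-positive cells without Neurog3 the median of Neurod1 was 226 CPM. For Cck and Sct the Chga-positive cells without Neurog3 held 6199 and 2143 CPM, above the 408 and 282 CPM of Neurog3-positive cells with Chga. Neurod2 and Pax4 were detected on both sides, at 57.4 and 35.0 CPM without Chga and 75.0 and 74.7 CPM with it.

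Apolipoprotein genes were among those higher with EIPA in the Neurog3-positive cells and immediate early genes among those lower. Across the WT libraries, 36 of 11234 genes tested were higher with EIPA (0.32%) and 8 lower (0.0712%), by edgeR's quasi-likelihood test on 2 against 2 sums. The number depended on the fit and the libraries: with the replicate number as a block 164 were higher and 24 lower, without +EIPA replicate 2 the counts were 123 and 36, without +EIPA replicate 1 83 and 15, without -EIPA replicate 1 57 and 9, and without -EIPA replicate 2 22 and 4. None of the 23 enteroendocrine transcription factors passed, with 0 at an unadjusted p under 0.05 by edgeR, and none of 14 Notch genes passed, with 2. Of the markers of the population, Neurod1 differed by 0.20 ± 0.16 and Sox4 by -0.33 ± 0.16 on the log2 scale. Of the secretory progenitor genes, Dll1 differed by -0.29 ± 0.21 and Atoh1 by 0.40 ± 0.29, and none of these passed the threshold. Both +EIPA values of Sox4 lay below both -EIPA values, and a test of 2 against 2 that a difference does not pass does not show that levels were equal.

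Of 12 enterocyte genes 3 were higher with EIPA and 0 lower, 10 had an unadjusted p under 0.05 (466 of all 11234 genes did), and the median was 1.00 against 0.00 over all genes. Of the tuft, goblet and Paneth markers 0 passed by edgeR, and their medians lay above 0.00: the median was 1.34 for 7 tuft genes, 5 of them at an unadjusted p under 0.05, 1.01 for 9 goblet genes (6) and 0.43 for 12 Paneth genes (6). The tuft value rests on low levels: the list summed to 22.7 and 27.4 CPM in -EIPA and 49.6 and 43.8 in +EIPA. Only 1 and 3, 6 and 3 of these cells held 2 or more Dclk1 UMIs. In other cells the medians were 0.025 for tuft, 0.827 for goblet and 0.952 for Paneth genes. Apoc3, an apolipoprotein of triglyceride-rich particles, went from 33.6 and 18.0 CPM to 141 and 129 (2.51 ± 0.23), a difference that turned to -0.091 without the cells that carried genes of other lineages, and Apoa1, the main protein of high-density lipoprotein, from 275 and 98.0 CPM to 794 and 743 (2.11 ± 0.34). Alpi went from 7.55 and 8.55 to 33.7 and 21.3 CPM (1.77 ± 0.26). The 2 conditions did not overlap for any of these genes. Beyond the list, Gm3776 (1.89 ± 0.17), Apoc2 (2.45 ± 0.24), Spink1 (1.80 ± 0.18), Ggt1 (2.91 ± 0.32), Gsta1 (1.504 ± 0.19) and Gda (3.42 ± 0.46) were higher. Gm3776 and Gsta1 are closely related glutathione transferase sequences, so reads may be split between them.

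The summed level of the enterocyte markers was higher in both +EIPA libraries than in both -EIPA libraries, in the Neurog3-positive and in the other cells, though in the other cells none of the 12 passed by edgeR, with 10 at an unadjusted p under 0.05. The summed enterocyte list was 4429 and 2287 CPM (-EIPA) against 7587 and 5371 (+EIPA) in the Neurog3-positive cells, and 8444 and 4749 against 15020 and 13190 in cells with no Neurog3 UMI. The share of Neurog3-positive cells with 2 or more Alpi UMIs was 1.20% and 2.18% without and 8.24% and 5.95% with EIPA. Leaving out the Neurog3-positive cells with 2 or more UMIs of Alpi, Lyz1, Muc2 or the tuft marker Dclk1 left 143 and 192, 181 and 104 cells, in which 1 gene was higher (Pyy) and 1 lower (Atf3), and 9 of the 44 differences changed sign, those of Apoc3 (-0.091), Gm3776 (-0.24) and Gsta1 (-0.175) among them. In the same cells Apoa1 differed by 0.25, Fos by -1.13 and Jun by -0.97, none past the threshold. Without the Lyz1 criterion, an alternative chosen after seeing the data, 239 and 540, 301 and 294 cells were left, in which 1 gene was higher, Pyy, and 4 were lower, and the differences of Apoc3 and Apoa1 were 1.61 and 1.10 without passing. Alpi was itself among the genes higher with EIPA, so both choices of cells depend on the difference examined, and they are given as a description. With likely doublets removed 13 of the 36 and 4 of the 8 genes passed again, and without -EIPA replicate 2 the numbers were 9 and 4. The direction was the same in other cells for 44 of the 44 genes, and the part of enterocyte RNA in these calls was not tested otherwise.

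Pyy went from 3.36 and 6.67 to 33.5 and 36.9 CPM (2.67 ± 0.25, edgeR adjusted p = 8.07e-04). It rested on few cells: 1 cell held 54.1% of the Pyy UMIs in +EIPA replicate 1 and 70.8% in replicate 2. Without the highest cell of each library the difference was 1.75 (edgeR adjusted p = 0.0562), and with cells of 1 or more Neurog3 UMIs 1.56 (edgeR adjusted p = 0.544). Under the other alternatives its adjusted p ranged from 2.25e-26 to 0.0239 by edgeR or DESeq2.

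Among 8 immediate early and stress genes 4 were lower with EIPA and 0 higher, with a median of -0.77. Fos, a subunit of AP-1, fell from 281 and 309 CPM to 125 and 128 (-1.19 ± 0.15), Fosb from 39.0 and 19.7 to 9.57 and 4.81 (-1.91 ± 0.36), Atf3 from 75.1 and 93.5 to 34.2 and 19.3 (-1.64 ± 0.24), and Jun from 465 and 466 to 244 and 204 (-1.02 ± 0.16). Hbegf, an EGF-family growth factor, fell from 63.4 and 65.5 CPM to 23.9 and 24.5 (-1.38 ± 0.16). No +EIPA value reached a -EIPA value for any of the 5. Fos was detected in 42.9% and 46.6% of cells without and 22.7% and 22.5% with EIPA after thinning to 3000 UMIs.

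The 8 genes that were lower with EIPA were also lower with Dox in the CRISPR line, and 34 of the 36 higher ones were higher with Dox, whereas over all genes tested 57.8% of those with a positive and 51.9% of those with a negative EIPA difference moved the same way with Dox. In -Dox and +Dox, Fos stood at 352 and 142 CPM (95% Poisson intervals 332 to 373 and 134 to 151), Hbegf at 63.7 and 29.1, Fosb at 25.1 and 5.05, and Jun at 473 and 306 CPM. Apoc3 stood at 32.3 and 192 CPM and Apoa1 at 176 and 538. The 2 genes that went the other way were Gm3776, at 29.3 and 28.7 CPM, and Enpep. Pyy rested on 4 and 10 UMIs. The summed enterocyte list of cells with no Neurog3 UMI stood at 9844 and 20940 CPM in these libraries.

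**Figure D4:**
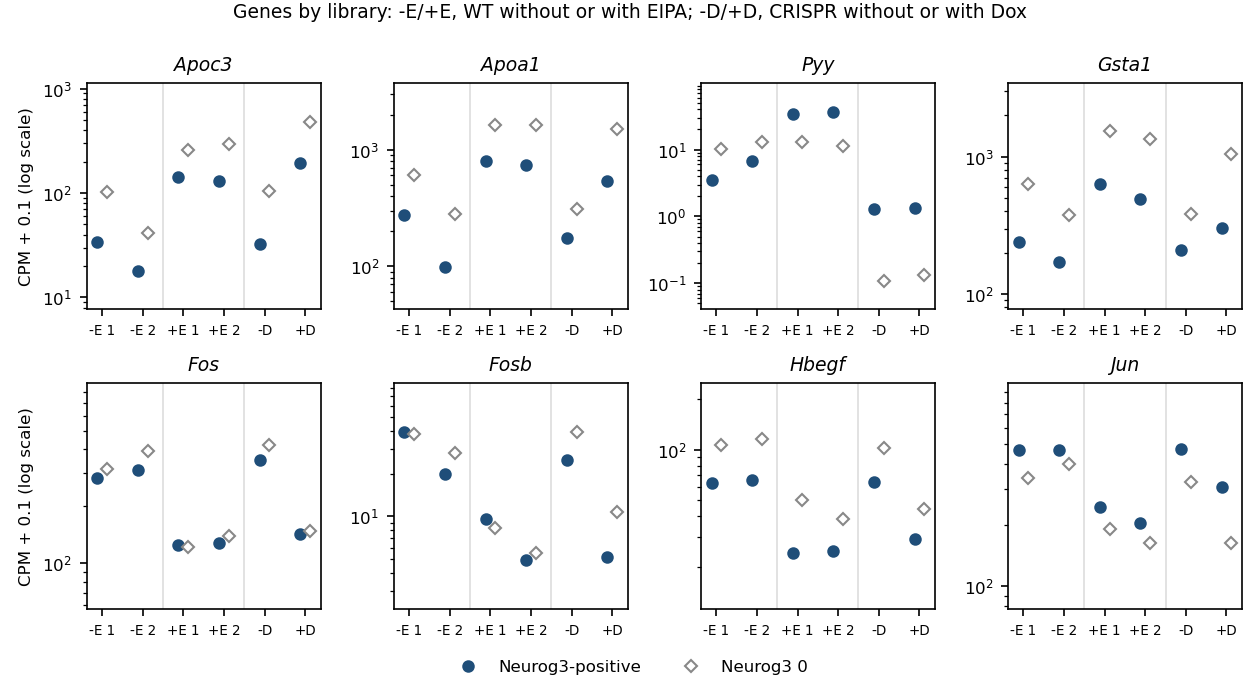
Level of 8 genes (y axis, CPM + 0.1, log scale) in each library (x axis) for Neurog3-positive cells and for cells with no Neurog3 UMI. Apoc3, Apoa1 and Gsta1 lie higher and Fos, Fosb and Hbegf lower in both +EIPA libraries than in both -EIPA libraries, in both populations.

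Whether the EIPA effect differed between Neurog3-positive and other cells was tested as an interaction. The other cells are a mixture of cell types, and a summed level does not separate the number of cells of a type from their level. Of 15673 genes, 15 were called with a higher difference in the Neurog3-positive cells (0.0957%) and 80 with a lower one (0.51%). The edgeR adjusted p reached 1.25e-105, for Sst, from 2 against 2 libraries. So few libraries measure the spread between them poorly, and the p-values and SEs of this test may understate it. Among the 44 genes called for EIPA, 4 were called, Pyy, Afp, Guca2b and Cyp2c29. Fos (0.16 ± 0.11), Hbegf (-0.12 ± 0.15), Apoc3 (0.30 ± 0.13) and Apoa1 (0.19 ± 0.10) did not pass. In cells with no Neurog3 UMI alone, 0 of 15776 genes passed by edgeR while 1655 had an unadjusted p under 0.05, so a call in the one population and none in the other is not a difference between them.

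With Dox, 249 of 11794 genes with more than 3 UMIs in both CRISPR libraries were over 2-fold higher in the Neurog3-positive cells (2.11%) and 228 over 2-fold lower (1.93%). Of 22 enteroendocrine transcription factors with enough UMIs 0 passed 2-fold in either direction, and none of 16 Notch genes did. Pax4 stood at 77.0 CPM without Dox (67.8 to 87.0) and 132 CPM with it (124 to 140), Sox4 at 1471 (1430 to 1513) and 957 (936 to 979), and Dll1 at 57.9 (50.04 to 66.7) and 31.7 (27.9 to 35.8). Of 11 Paneth genes 9 were over 2-fold higher with Dox, Lyz1 going from 572 to 1833 CPM, beside a rise of the summed Paneth list from 7001 to 23520 CPM in cells with no Neurog3 UMI.

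The Neurog3-positive cells of the CRISPR line, whether treated with Dox or not, differed from those of the WT organoids. Of 14489 genes, 2990 were above all 4 WT values in both CRISPR libraries (20.6%) and 1548 below all 4 (10.7%). Of the 23 enteroendocrine transcription factors 11 were below and 2 above, of 14 hormone genes 11 below and 2 above, and of 15 granule genes 10 below and 2 above. The lines differed also outside the Neurog3-positive cells. In Chga-positive cells without Neurog3, of which the CRISPR libraries held 48 and 119, Isl1 stood at 25.6 and 4.29 CPM in -Dox and +Dox against 90.1 to 132 in the WT libraries, Nkx2-2 at 31.3 and 29.0 against 91.6 to 113, Cdkn1c at 31.3 and 13.9 against 147 to 219, Vim at 11.4 and 5.36 against 134 to 296, and Pax4 at 73.9 and 71.9 against 9.73 to 16.3 CPM. Other genes did not go the same way there in -Dox: Neurod1 stood at 247 CPM, above the WT range of 206 to 242. Chgb stood at 9333 CPM in -Dox, within the WT range of 7282 to 14370. In +Dox each of these genes lay below its WT range, Neurod1 at 109 and Chgb at 4886 CPM. Whether the difference between the lines was larger in either population was not tested. These comparisons have no replicate of the CRISPR groups, and line, clone and culture cannot be told apart.

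Nkx2-2, a homeodomain factor of endocrine lineages, stood at 23.8 and 32.7 CPM in -Dox and +Dox against 116 to 136 CPM in the WT libraries, Isl1 at 2.72 and 4.93 against 40.3 to 58.9, and Pax6 at 2.11 and 4.19 against 13.3 to 20.6. Chgb, for chromogranin B, stood at 910 and 1530 CPM against 4553 to 9088, Tac1 at 26.9 and 41.8 against 312 to 601 and Tph1 at 23.8 and 53.8 against 194 to 261. Vim, an intermediate filament gene, stood at 2.41 and 5.18 CPM against 102 to 199. For each of these genes both CRISPR values lay below all WT values. Gip and Gcg had 0 UMIs in both CRISPR libraries, which allows up to 0.905 CPM in -Dox and 0.37 CPM in +Dox (3 counts in each), against WT ranges of 19.3 to 770 and 2.29 to 114 CPM.

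The genes on the higher side were Pax4 (77.0 and 132 CPM against 36.8 to 55.0) and Mlxipl (112 and 116 against 62.1 to 74.3), and among hormones Iapp, for amylin, at 92.4 and 124 CPM against 3.78 to 25.7, and Ucn3. Iapp was detected in 13.8% and 25.9% of the CRISPR cells after thinning to 3000 UMIs and in 1.22% to 4.27% of the WT cells. Serpina1c stood at 211 and 260.5 CPM against 55.8 to 65.5, and Nupr1, a stress-response gene, at 98.7 and 194 against 8.81 to 26.4. Insm1 (229 and 238 against 186 to 264 CPM), Neurod2, Sox4, Dll1 and Atoh1 overlapped between the lines. Of 15 S-phase genes 8 were above and 0 below the WT range.

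**Figure D5:**
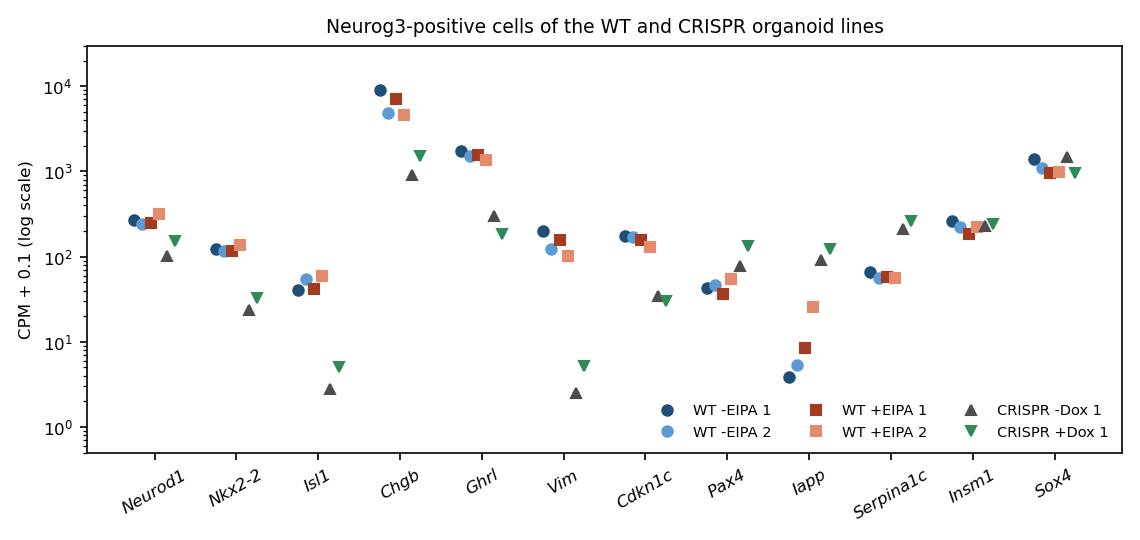
Level of 12 genes (y axis, CPM + 0.1, log scale) in the Neurog3-positive cells of each library, 1 point per library. Neurod1, Nkx2-2, Isl1, Chgb, Ghrl, Vim and Cdkn1c are lower and Pax4, Iapp and Serpina1c higher in both CRISPR libraries than in any WT library, while Insm1 and Sox4 overlap.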

How the data were processed

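Single cells were measured by 10x 3′ RNA sequencing. The authors aligned reads to mm10 and counted UMIs per gene and cell with Cell Ranger 6.1.2, and the deposited values are raw counts in 6 libraries. Cells with 1000 or more genes and under 20% mitochondrial UMIs were kept. Counts were summed over the cells of each population and library, and tested with edgeR 4.0.16 (R 4.3.3; quasi-likelihood F test, TMM normalization, low-count filter, Benjamini-Hochberg adjustment over all genes tested, two-sided, threshold 0.05). DESeq2 1.42.0 was an alternative. Intervals of shares are exact binomial (Clopper-Pearson, scipy 1.17.1) and those of counts exact Poisson, and both cover counting error only. Doublets were scored with Scrublet (scanpy 1.11.5). Its automatic threshold marked from 0% to 12.5% of cells depending on the library, so the cells with the highest 10% of scores in each library were called. The scripts were tested on simulated data. Levels of the gene targeted by the guide are not reported here.

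Groups came from the labels. The members and gene lists were chosen with earlier results of these data known. Named beyond the marker genes are the listed genes with the largest differences (up to 4 a list), and for each comparison between populations 15 genes in each direction at 50 CPM or more with 1 direction in all 6 libraries, and for EIPA the 10 of smallest p. Other listed genes that are named, among them Isl1, Lmx1a, Myt1, Fev and Lgr5, and the genes named for the CRISPR libraries were chosen after their values were seen. Alternatives changed the normalization, test, filters, doublets, Neurog3 threshold, depth range and libraries.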

Additional observations from a re-analysis of the deposited data

Results flagged for a closer look

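A difference in the EIPA effect between Neurog3-positive cells and cells with no Neurog3 UMI was called for 95 genes by edgeR's interaction test. Of these, 15 had a higher and 80 a lower difference in the Neurog3-positive cells. The test rests on 2 against 2 libraries, and its p-values and SEs may understate the spread between libraries. Pyy had an interaction of 2.57 ± 0.22 (log2), with a difference of 2.67 in Neurog3-positive and 0.15 in other cells, and 1 cell held 54.1% and 70.8% of its UMIs in the +EIPA replicates. Chga had an interaction of -0.51, with 0.33 in Neurog3-positive and 0.82 in other cells. The other cells are a mixture that held 257 and 594 Chga-positive cells in -EIPA and 399 and 394 in +EIPA. Within those Chga-positive cells, which were chosen on Chga, its level was 2225 and 1778 CPM in -EIPA and 3045 and 2539 CPM in +EIPA. How far the number of such cells or their level made the difference was not tested.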

How the results depend on the processing

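The 6 counts of genes that separated Neurog3-positive cells from the other populations moved by less than 1.5 times under every alternative run. The count higher with EIPA, 36, was 161 with no filter on low counts, 164 with a replicate block, 1 without cells carrying genes of other lineages, also 1 with Lyz1 not used there, and 22 to 123 when each library was left out. The count lower with EIPA, 8, was 16 with no filter, 24 with the replicate block, 4 without called doublets, 5 with a threshold of 1 Neurog3 UMI, 1 and 4 under the lineage criteria, and 4 to 36 when each library was left out. The interaction count of 15 higher was 1 with DESeq2, 24 without doublets, 6 and 9 at 1 and 3 Neurog3 UMIs, 9 with 2000 or more genes and under 10% mitochondrial UMIs, and 13 to 24 when each library was left out. That of 80 lower was 15, 49, 45 and 47 with DESeq2, at 1 and 3 UMIs and with stricter cell limits, and 24 to 106 when each library was left out. The causes were not tested. The ratio of shares, 0.996, was 0.924 to 1.003 under the other settings, 1.07 ± 0.449 as a mean within replicate numbers (replicate block) and 0.80 to 1.32 when each library was left out. Without cells of other lineages the EIPA difference reversed for Gm3776 (-0.24), Apoc3 (-0.091) and Gsta1 (-0.175). When each library was left out, Spdef ranged from -0.578 to 0.303 and Hes1 from -0.12 to 0.016. Against Chga-positive cells, Neurod1 turned to -0.10 at 1 Neurog3 UMI and -0.23 within the depth range, and Atoh1 to -0.024 at 3 UMIs. Replicate numbers were shared between conditions, with a correlation of deviations of 0.351 over 11235 genes. The paper describes the WT organoids as coming from separate preparations. The labels do not say whether equal replicate numbers mark the same preparation in both conditions, and with 2 pairs this was not tested. The main EIPA fit did not use the replicate number, so it leaves out any pairing, and the replicate block was run as an alternative only.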
